A study of Homo sapiens with 6 samples.

Results

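The ERK pathway feedback inhibitors described here are 9 genes, the dual-specificity phosphatases DUSP4, DUSP5 and DUSP6, the Sprouty genes SPRY1, SPRY2 and SPRY4, and the Sprouty-related genes SPRED1, SPRED2 and SPRED3. They were picked by name, and each matched 1 of the 67026 genes of the count table. All 9 passed the filter on low counts, which kept 16254 genes. RNA was sequenced from xenografts of PC-3, an established human prostate cancer line, in 3 shVCAN and 3 shGFP tumours. In shVCAN tumours (genotype KD VCAN) a lentivirus delivered a short hairpin RNA targeting VCAN, the gene for the matrix proteoglycan versican, and in shGFP tumours (genotype KD control) one targeting GFP. Cells of both groups had been selected with puromycin at 2 μg/mL, and 1200000 of them were injected under the skin of each mouse. Hosts were males of the strain NOD.Cg-Prkdcscid Il2rgtm1Wjl/SzJ (NSG), aged 4 to 5 weeks, which lack lymphocytes but keep their own stroma and vessels. Tumour growth was followed for 4 weeks. Both groups derive from 1 cell line, and the labels do not tie the numbered tumours to separate mice, so p-values measure only the spread between these samples, which may be technical.

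Growth factor receptors activate RAS, which switches on the kinases RAF, MEK and ERK in turn. Active ERK raises the transcription of its own inhibitors, and so their messenger RNAs are often used as a readout of the pathway. DUSP phosphatases remove phosphate from ERK itself, Sprouty proteins act between receptor and RAF, and SPRED proteins bring the RAS inactivator neurofibromin to the membrane. Lower SPRY1 and SPRY2 levels have been reported in human prostate cancer.

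Start-site sequences are shown for the Sprouty genes because these close relatives spanned the widest range of log2 fold changes of the 3 families. They come from RefSeq (GRCh38.p14), lie upstream of a RefSeq start site and hold no exonic base of GENCODE 29. In the table used, 7 of the 9 members had a window of 250 bases before a start, SPRY1 with 2 windows and SPRY2 with 3. Of each, the most upstream window is printed, and for SPRY4 the 80 bases of its only window that are clear of exons. Those 80 bases lie inside the span of SPRY4 in GENCODE 29 (142310427 to 142326455), so they do not precede its GENCODE start. Capitals mark the ETS core CCGGAA on either strand. The windows were also searched on both strands for the AP-1 motif TGANTCA and the CRE core TGACGT.
SPRY4, chr5:142324418-142324497, minus strand: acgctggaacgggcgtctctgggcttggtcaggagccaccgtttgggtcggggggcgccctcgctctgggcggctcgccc
SPRY1, chr4:123396545-123396794, plus strand: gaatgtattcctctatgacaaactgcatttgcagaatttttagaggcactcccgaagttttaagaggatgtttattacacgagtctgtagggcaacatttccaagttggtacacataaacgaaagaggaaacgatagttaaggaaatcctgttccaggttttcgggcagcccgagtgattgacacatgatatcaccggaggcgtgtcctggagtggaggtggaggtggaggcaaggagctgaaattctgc
SPRY2, chr13:80341127-80341376, minus strand: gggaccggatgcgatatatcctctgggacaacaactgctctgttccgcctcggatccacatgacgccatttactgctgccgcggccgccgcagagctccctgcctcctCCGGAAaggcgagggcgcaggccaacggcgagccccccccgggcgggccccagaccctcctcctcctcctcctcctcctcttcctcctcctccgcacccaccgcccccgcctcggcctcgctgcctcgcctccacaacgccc
The SPRY2 window held 1 ETS core, and the SPRY1 and SPRY4 sequences shown held none of the 3 motifs. The second SPRY1 window, not shown, also held 1 ETS core, and 1 SPRED3 window held 1 AP-1 motif. Of 35116 windows in the table, 14.5% held the ETS core, 6.57% the AP-1 motif and 7.1% the CRE core.

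The labels were checked first. VCAN (chromosome 5, 83471465 to 83582303, GRCh38) had 5.01, 2.75 and 3.21 CPM in shVCAN tumours 1, 2 and 3, against 11.1, 9.66 and 11.1 CPM in shGFP tumours. CPM are read counts brought to a common library size, with TMM scaling factors. The shVCAN tumours lay below all shGFP tumours, and the log2 fold change was −1.53 (SE 0.207; adjusted p = 4.59e-07, quasi-likelihood test of edgeR), with an exact two-sided permutation p of 0.1, the smallest that 3 against 3 allows. The prostate secretory genes KLK2 and KLK3 were at 0 in all 6 libraries. The 6 epithelial markers summed to 1281 to 1326 CPM in shVCAN and 1568 to 1774 CPM in shGFP tumours, and none of them was under 1 CPM. Of these 6, 5 were called lower by edgeR, where 21.1% of all genes tested were. CDH1 had 3.61 ± 0.814 CPM in shVCAN and 16.5 ± 2.31 CPM in shGFP tumours (SD, n = 3 each). KRT19, the most abundant, was not called. Libraries held 12959840 to 13327617 counts in shVCAN and 11253058 to 12936539 in shGFP tumours. Messenger RNAs of the mitochondrial genome took 6.39% to 7.63% of counts in shVCAN and 13.3% to 16.2% in shGFP tumours, and leaving these genes out of the scaling changed no member's call.

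Across the 9 members, SPRY4 and SPRY1 were lower and DUSP5 higher in the shVCAN tumours, while the other members differed little. At an adjusted p under 0.05, 1 member rose (DUSP5), 4 fell (SPRY4, SPRY1, DUSP4 and SPRED1) and 4 were not called. That is 5 of 9 (3 of 9 without shGFP tumour 1 or without shGFP tumour 2), where 40.3% of all genes tested were called, 19.2% as higher and 21.1% as lower. Among the 6931 genes within the members' own range of mean level (23.8 to 429.3 CPM), 56.9% were called, so the share of members called is close to that of equally abundant genes. The groups did not overlap in 7 members, with DUSP5 above and SPRY1, SPRY2, SPRY4, SPRED1, SPRED2 and DUSP4 below, where 48.7% of all genes did not overlap, 23.9% above and 24.8% below. The median log2 fold change of the members was −0.18, beside 0.0014 over all genes tested. Neither the share without overlap nor the median was computed for equally abundant genes alone, so these comparisons do not allow for abundance. Log2 fold changes are shVCAN over shGFP.

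**Figure D1:**
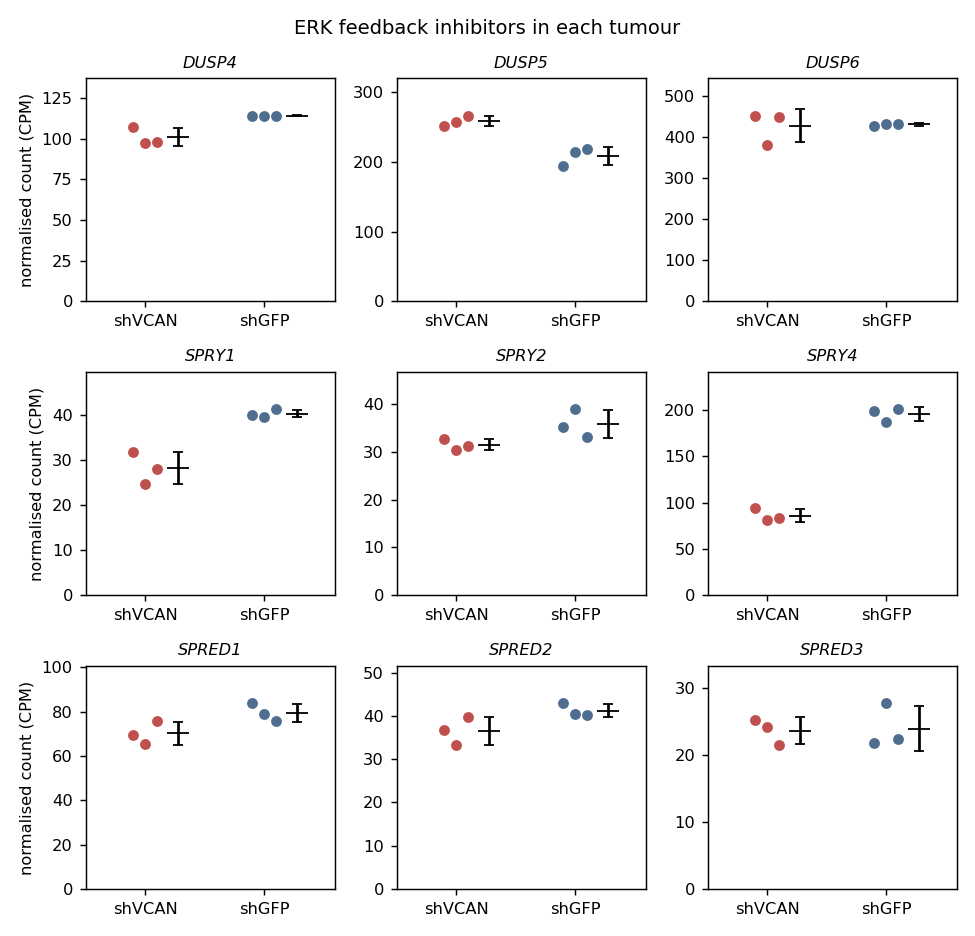
Normalised read counts (CPM, vertical axes from 0) of the 9 members in each tumour, with shVCAN left of shGFP, 1 point per tumour, and mean ± SD (n = 3) beside the points. SPRY4 lies between 80.7 and 93.6 CPM in shVCAN and between 187 and 201 CPM in shGFP tumours, while DUSP6 and SPRED3 overlap between the groups.

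SPRY4 (ENSG00000187678.9, chromosome 5, 142310427 to 142326455, minus strand) encodes a Sprouty protein that restrains RAS and RAF activation downstream of receptors. It had 93.6, 80.7 and 83.04 CPM in shVCAN tumours 1, 2 and 3, against 199, 187 and 201 CPM in shGFP tumours. Every shVCAN tumour lay far below every shGFP tumour. The counts behind these levels were 1290, 1143 and 1138 in shVCAN, against 2394, 2013 and 2198 in shGFP tumours. The mean was 85.8 ± 6.91 CPM in shVCAN and 196 ± 7.55 CPM in shGFP tumours (SD, n = 3 each), a log2 fold change of −1.19 (SE 0.0621, 95% interval −1.32 to −1.06, edgeR adjusted p = 9.17e-16). Of all genes tested, 3.99% had a larger change in either direction. Over all 17 alternative settings SPRY4 stayed between −1.26 and −1.02 and was called in each.

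SPRY1 (ENSG00000164056.11, chromosome 4, 123396795 to 123403760, plus strand) encodes another Sprouty inhibitor of receptor signalling. It had 31.8, 24.6 and 27.9 CPM in shVCAN tumours, against 40.1, 39.6 and 41.2 CPM in shGFP tumours. The groups did not overlap, and the shVCAN tumours were spread more widely, with a coefficient of variation of 12.8% against 2.06% in shGFP tumours, where counting alone gives 5.06% and 4.70%. The log2 fold change was −0.52 (SE 0.0956, 95% interval −0.71 to −0.32, edgeR adjusted p = 5.55e-05). SPRY2 (ENSG00000136158.12, chromosome 13, 80335976 to 80340951, minus strand), which binds the ubiquitin ligase CBL and the adaptor GRB2, had 32.8, 30.5 and 31.2 CPM in shVCAN tumours, against 35.2, 38.9 and 33.2 CPM in shGFP tumours. Its groups lay next to each other without overlap, and the difference was not called (log2 fold change −0.18, SE 0.0917, edgeR adjusted p = 0.115). With an offset that removes trends of exonic length and GC content from each library, SPRY2 was called lower (−0.25, adjusted p = 0.0192).

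The make-up of the Sprouty and of the DUSP messenger RNAs differed between groups without overlap, and this measure does not depend on the scaling of the libraries. Differences between libraries in the trends of exonic length and GC content were not removed from it. Per kilobase of exon, SPRY4 held 43.1%, 43.1% and 42.2% of the summed SPRY1, SPRY2 and SPRY4 level in shVCAN tumours, against 58.3%, 55.5% and 58.9% in shGFP tumours. The share of SPRY2 averaged 34.03% ± 1.28 in shVCAN and 22.8% ± 2.02 in shGFP tumours, and that of SPRY1 23.2% ± 1.27 in shVCAN and 19.6% ± 0.342 in shGFP tumours. The summed level of the 3 genes was 30.5 ± 2.33 CPM per kb in shVCAN and 51.7 ± 0.406 CPM per kb in shGFP tumours. Among the phosphatases, DUSP5 held 48.3% ± 2.32 in shVCAN and 42.4% ± 1.4 in shGFP tumours, DUSP6 44.9% ± 2.31 in shVCAN and 49.3% ± 1.14 in shGFP tumours, and DUSP4 6.78% ± 0.383 in shVCAN and 8.34% ± 0.256 in shGFP tumours. These shares are given as a description, without a test.

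**Figure D2:**
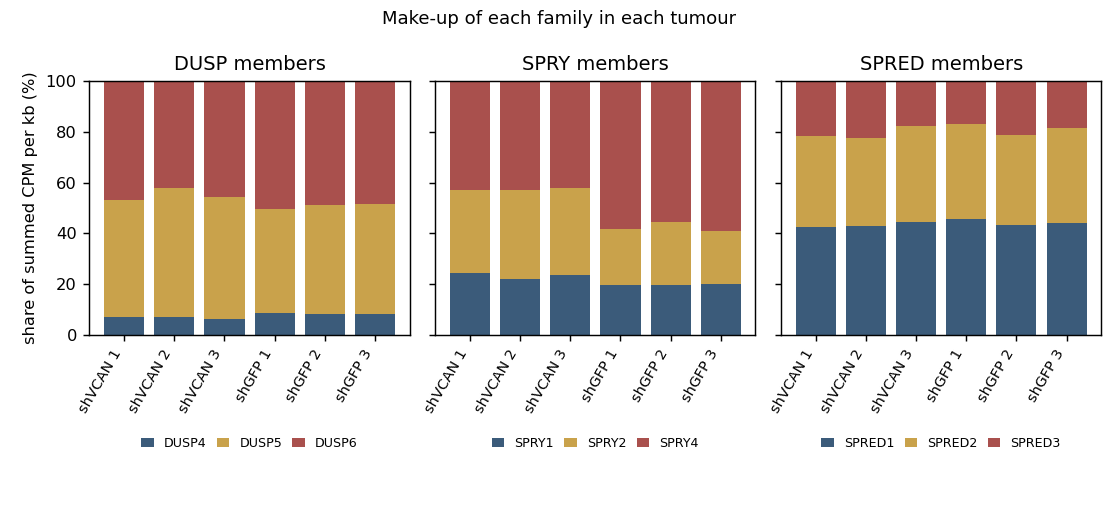
Share of each member (%) in the summed per-length level (CPM per kb of exon) of its own family, as stacked bars, 1 bar per tumour, with shVCAN tumours left of shGFP tumours. SPRY4 takes 42.2% to 43.1% of the SPRY level in shVCAN and 55.5% to 58.9% in shGFP tumours, the DUSP shares also lie apart, and the SPRED shares overlap between groups.

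Among the phosphatases, DUSP5 was higher in the shVCAN tumours, while SPRY4 and SPRY1 were lower. DUSP5 (ENSG00000138166.6, chromosome 10, 110497838 to 110511544, plus strand) is an inducible nuclear phosphatase specific for ERK. It had 252, 258 and 267 CPM in shVCAN tumours, against 194, 214 and 219 CPM in shGFP tumours. All shVCAN tumours lay above all shGFP tumours, with a log2 fold change of 0.31 (SE 0.0538, 95% interval 0.20 to 0.42, edgeR adjusted p = 2.55e-05), and DUSP5 was called higher in all 17 alternatives (0.25 to 0.47). The noncoding gene DUSP5-DT, which starts 1634 bases from DUSP5 on the opposite strand, had 80, 100 and 104 counts in shVCAN tumours, against 35, 29 and 38 in shGFP tumours. It rose with a log2 fold change of 1.17 (edgeR adjusted p = 9.91e-05), and it was singled out after its values were seen.

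DUSP6 (ENSG00000139318.8, chromosome 12, 89347232 to 89353271, minus strand), the cytoplasmic phosphatase specific for ERK, was the most abundant member by CPM. It had 452, 382 and 449.9 CPM in shVCAN tumours, against 427, 433 and 432 CPM in shGFP tumours. The shGFP values fell inside the range of the shVCAN tumours, of which tumour 2 was the lowest. The log2 fold change of −0.0092 (SE 0.0535, 95% interval −0.12 to 0.10, edgeR adjusted p = 0.911) bounds any difference in either direction under this scaling. When libraries were scaled by size alone, DUSP6 had 0.16 (adjusted p = 0.0233), and the median of all genes was then 0.168, so relative to that median DUSP6 was at −0.011. Of the exonic bases of DUSP6, 40.5% are also annotated to an antisense gene with 36 to 50 counts per tumour, and the sources used here do not say whether counting used strand.

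DUSP4 (ENSG00000120875.9, chromosome 8, 29333064 to 29350668, minus strand) is a nuclear phosphatase that acts on ERK and on other MAP kinases. It had 107, 97.6 and 97.9 CPM in shVCAN tumours, against 114, 114 and 114 CPM in shGFP tumours. The shVCAN tumours were lower by little, and the shGFP tumours differed among themselves by 0.127% (coefficient of variation), below the 2.79% that counting gives. The log2 fold change was −0.18 (SE 0.061, edgeR adjusted p = 0.0197). This call was lost with library size alone (−0.011), with the length and GC offset (−0.022), with upper quartile factors or no filter, and without shVCAN tumour 3 (adjusted p = 0.0776) or shGFP tumour 1, 2 or 3 (adjusted p = 0.0667, 0.0623 and 0.062). Per kilobase of exon, DUSP5 and DUSP6 stood well above all other members, at 99.03 and 92.4 CPM per kb in shVCAN and 79.98 and 92.98 CPM per kb in shGFP tumours. DUSP4 had 13.9 CPM per kb in shVCAN and 15.7 CPM per kb in shGFP tumours.

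Of the SPRED genes, 1 of 3 was called. SPRED1 (ENSG00000166068.13, chromosome 15, 38252326 to 38357249, plus strand), mutated in Legius syndrome, had 69.5, 65.5 and 75.6 CPM in shVCAN tumours, against 83.9, 79.1 and 75.7 CPM in shGFP tumours. The highest shVCAN tumour and the lowest shGFP tumour nearly met. SPRED1 fell by 0.18 on the log2 scale (SE 0.0703, edgeR adjusted p = 0.0394), and the call was lost with library size alone (−0.015), upper quartile factors, no filter or the Wald test of DESeq2. It was also lost without shVCAN tumour 1 or 2 (adjusted p = 0.111 and 0.134) or shGFP tumour 1 or 2 (adjusted p = 0.214 and 0.0946). SPRED2 (ENSG00000198369.10, chromosome 2, 65310851 to 65432637, minus strand), a broadly expressed relative, had 36.8, 33.3 and 39.8 CPM in shVCAN tumours, against 43, 40.5 and 40.2 CPM in shGFP tumours, a log2 fold change of −0.17 (SE 0.0872, edgeR adjusted p = 0.119). SPRED3 (ENSG00000188766.12, chromosome 19, 38388421 to 38399587, plus strand), the least abundant member, had 25.3, 24.3 and 21.5 CPM in shVCAN tumours, against 21.8, 27.8 and 22.4 CPM in shGFP tumours. Its groups overlapped, and its 95% interval ran from −0.25 to 0.21 around −0.016 (edgeR adjusted p = 0.927).

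In per-length order over the shVCAN tumours, DUSP5 and DUSP6 were followed by DUSP4 (13.9), SPRY4 (13.1), SPRY2 (10.4), SPRED1 (8.5), SPRED2 (7.11), SPRY1 (7.1) and SPRED3 (4.04 CPM per kb). In shGFP tumours SPRY4, at 29.8 CPM per kb, stood above DUSP4. In shVCAN tumours the values of DUSP5 and DUSP6 overlapped across tumours, as did those of DUSP4 and SPRY4 and those of SPRED2 and SPRY1. Seen against the median of all genes under library size scaling, SPRY4 was at −1.19, SPRY1 at −0.52 and DUSP5 at 0.31. DUSP4 and SPRED1 were both at −0.18. These equal the TMM values to 2 decimals because a change of scaling moves all genes by nearly the same amount. The match is therefore no check of the results.

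**Figure D3:**
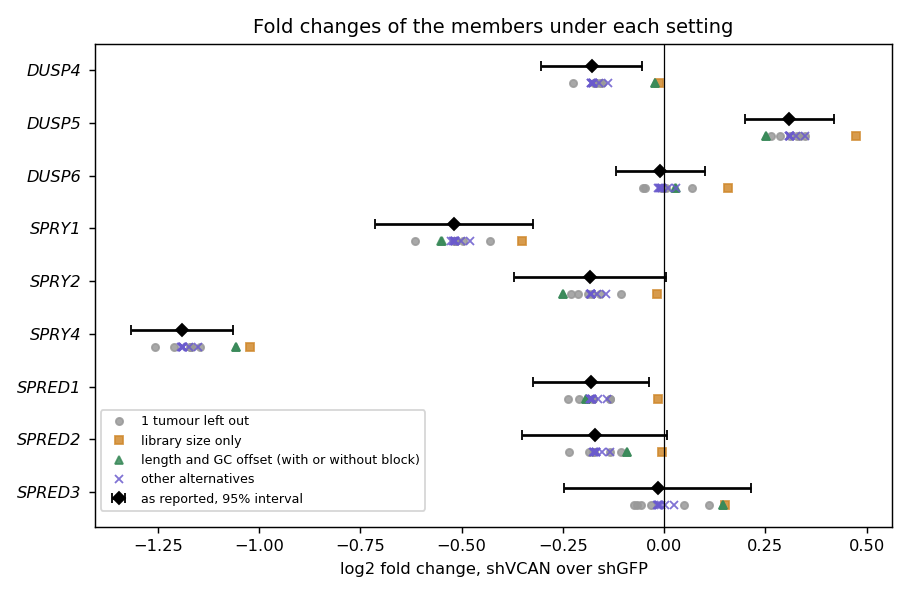
Log2 fold changes (shVCAN over shGFP, horizontal axis) of the 9 members as reported, with their 95% interval (black), and under the 17 alternatives (coloured points below each interval). SPRY4 and SPRY1 stay below 0 and DUSP5 above 0 in all of them, whereas DUSP4, SPRED1, SPRED2 and SPRY2 come close to 0 with library size alone.

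Markers of other cell types also differed between the groups, and their counts stand beside 40.3% of all genes called, 21.1% as lower. The 10 fibroblast and pericyte markers summed to 423 to 517 CPM in shVCAN and 867 to 967 CPM in shGFP tumours, with 5 of 7 tested markers lower and 1 higher. COL1A2 had 13.9 ± 2.78 CPM in shVCAN and 72.1 ± 10.4 CPM in shGFP tumours, COL3A1 29.7 ± 4.48 CPM in shVCAN and 80.2 ± 7.87 CPM in shGFP tumours, and PDGFRA 46.6 ± 3.11 CPM in shVCAN and 59.02 ± 3.66 CPM in shGFP tumours. COL1A1 and FBLN1 fell as well, RGS5 rose, and DCN, PDGFRB and DPT were under 1 CPM in the mean of either group. The 11 endothelial markers summed to 197 to 202 CPM in shVCAN and 251 to 264 CPM in shGFP tumours, with 6 of 8 tested lower and 1 higher and VWF, CLDN5 and EMCN under 1 CPM. The 9 skeletal muscle markers summed to 172 to 264 CPM in shVCAN and 231 to 403 CPM in shGFP tumours, with 4 of 6 tested lower and TNNT3 at 0. The 10 macrophage and other leukocyte markers summed to 5.3 to 7.3 CPM in shVCAN and 6.99 to 10.1 CPM in shGFP tumours, 1 of 5 tested fell, 6 were under 1 CPM, and AIF1 and CD3E were at 0. The 5 adipocyte markers summed to 18.2 to 19.3 CPM in shVCAN and 5.02 to 7.24 CPM in shGFP tumours, with FABP4 at 18.1 CPM in shVCAN and 4.45 CPM in shGFP tumours and ADIPOQ and LEP at 0. The higher sum was that of FABP4 alone. CIDEC had 0.097 CPM in shVCAN and 1.03 CPM in shGFP tumours, PLIN1 0.338 CPM in shVCAN and 0.528 CPM in shGFP tumours, and neither passed the filter. The part of these cells in the members' levels was not tested, and in bulk RNA fewer cells of a type and less RNA per cell cannot be told apart. The counts are on human genes, so transcripts of the PC-3 cells and mouse reads aligned to human genes cannot be told apart either. The sums are therefore not measures of host cell content. Removal of mouse reads before counting is not described in the sources used here.

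The related MAP kinase phosphatases moved in both directions as well. DUSP1, an early response phosphatase that acts mainly on p38 and JNK, fell to 18.3 ± 2.2 CPM in shVCAN tumours, against 38.7 ± 1.19 CPM in shGFP tumours (log2 fold change −1.08, edgeR adjusted p = 7.28e-10). DUSP7, a cytoplasmic ERK phosphatase like DUSP6, fell to 36.3 ± 1.73 CPM in shVCAN, against 47.4 ± 2.56 CPM in shGFP tumours (−0.38, edgeR adjusted p = 0.000372). DUSP9, the other phosphatase of that group, rose to 23.5 ± 1.71 CPM in shVCAN, against 13.97 ± 1.52 CPM in shGFP tumours (0.75, edgeR adjusted p = 7.93e-06). DUSP2 had 5.29 ± 1.51 CPM in shVCAN and 3.79 ± 0.603 CPM in shGFP tumours and DUSP10 had 11.7 ± 1.08 CPM in shVCAN and 13.8 ± 2.17 CPM in shGFP tumours, and neither was called (edgeR adjusted p = 0.113 and 0.213), although DUSP2 was called higher with library size alone (0.65, adjusted p = 0.0293). DUSP8, DUSP16 and SPRY3 were listed at 0 in all 6 libraries, and whether this reflects absent expression was not tested.

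In the cascade that the members restrain, 8 of 18 tested genes fell, 0 rose and 10 were not called by edgeR (median log2 fold change −0.18). The 44.4% called lies between the 40.3% of all genes called and the 56.9% of genes within the members' range of mean level. MAP2K1 was higher at an unadjusted p of 0.0314 (0.15), and limma and the Wald test of DESeq2 also called 0 higher. However, 2 genes were called higher with the length and GC offset, with or without the replicate block, and 1 with upper quartile factors, with no filter, and when tumour 2 of either group was left out. With library size alone 4 fell and 1 rose. The adaptor SHC1 had 137 ± 4.1 CPM in shVCAN and 211 ± 9.38 CPM in shGFP tumours (−0.62). ARAF (−0.45), NRAS (−0.41) and the phosphatase PTPN11 (−0.28), which promotes RAS activation, fell too, the last not with library size alone (adjusted p = 0.157). ERK1, MAPK3, had 35.7 ± 3.48 CPM in shVCAN and 36.1 ± 3.67 CPM in shGFP tumours and was not called. HRAS was listed at 0 in all libraries. Whether a row at 0 in all libraries reflects absent expression was not tested, for HRAS or for the other genes listed at 0.

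Of 15 tested inhibitors outside the DUSP, SPRY and SPRED families, 9 fell, 3 rose and 3 were not called (median −0.36). ERRFI1, a feedback inhibitor that binds EGFR, had 168 ± 5.5 CPM in shVCAN and 257 ± 3.5 CPM in shGFP tumours (−0.61, edgeR adjusted p = 5.34e-11), and LRIG3 (−0.62) and the ubiquitin ligase CBL (−0.51) fell as well. The risers were IL17RD, also called SEF, with 17.7 ± 2.34 CPM in shVCAN and 9.72 ± 1.61 CPM in shGFP tumours (0.86), the RAF inhibitor PEBP1 (0.46) and PEA15 (0.23), which holds ERK in the cytoplasm. NF1, the neurofibromin gene and SPRED partner, had 46.5 ± 1.79 CPM in shVCAN and 59.5 ± 0.864 CPM in shGFP tumours (−0.36, edgeR adjusted p = 0.000224), and it was named for that partnership, outside the rule for named genes.

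Of 16 tested ERK output genes, 11 fell, 1 rose and 4 were not called (median −0.31), and with library size alone 7 fell and 1 rose. The early response factors FOS (2.19 ± 0.216 CPM in shVCAN and 6.99 ± 1.25 CPM in shGFP tumours), EGR3 (0.697 ± 0.092 CPM in shVCAN and 4.79 ± 0.784 CPM in shGFP tumours) and JUNB (31.6 ± 2.93 CPM in shVCAN and 60.7 ± 4.13 CPM in shGFP tumours) fell. EPHA2 fell to 506 ± 16.9 CPM in shVCAN, against 829 ± 47.1 CPM in shGFP tumours. CCND1 (−0.76), EGR1 (−1.31) and FOSB (−0.94) fell too. The falls of FOS, EGR3, EGR1 and FOSB rested on few counts. FOS had 30, 28 and 33 counts in shVCAN and 95, 60 and 82 in shGFP tumours. EGR3 had 9, 9 and 11 counts in shVCAN and 61, 42 and 59 in shGFP tumours. EGR1 had 7, 7 and 12 counts in shVCAN and 22, 14 and 17 in shGFP tumours (SE 0.467, edgeR adjusted p = 0.0246). FOSB had 29, 35 and 24 counts in shVCAN and 53, 39 and 45 in shGFP tumours (edgeR adjusted p = 0.00785). PHLDA1 was the 1 that rose, with 268 ± 16.9 CPM in shVCAN and 209.9 ± 3.5 CPM in shGFP tumours (0.35, edgeR adjusted p = 3.1e-06). FOSL1, with 103 ± 10.8 CPM in shVCAN and 103 ± 0.54 CPM in shGFP tumours, and ETV5, with 94.1 ± 5.06 CPM in shVCAN and 97.7 ± 1.96 CPM in shGFP tumours, were not called, and ETV4 had −0.14 (edgeR adjusted p = 0.0326). Outside the rule for named genes, PHLDA1, EGR1, FOSB, FOSL1, ETV4, ETV5, PEA15, MAPK3, MAP2K1, HGF, FGF5 and BTC were named after their values were seen.

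Upstream, 7 of 12 tested growth factor receptors fell, 1 rose and 4 were not called (median −0.33). With library size alone 4 fell and 1 rose. FGFR1 had 540.1 ± 9.05 CPM in shVCAN and 707 ± 27.1 CPM in shGFP tumours (−0.39), EGFR had 24 ± 2.03 CPM in shVCAN and 38.2 ± 0.282 CPM in shGFP tumours (−0.67), and KDR fell by 0.92 on the log2 scale. Among the receptors that fell, KDR is also an endothelial marker above and PDGFRA a fibroblast and pericyte marker. Their falls are therefore counted in both places. FGFR4 rose (0.47), and the fall of IGF1R (−0.36) was lost with the length and GC offset (adjusted p = 0.151). Of 17 tested growth factors, 8 fell, 3 rose and 6 were not called (median −0.45). With library size alone 8 fell and 5 rose. PDGFB (−1.45), KITLG (−1.03), VEGFA (−0.62), AREG (−0.95) and PDGFA (−0.60) fell, and the risers were HGF (1.59), FGF5 (0.62) and the EGFR ligand BTC (0.50). HGF rested on few counts, 41, 48 and 49 in shVCAN and 19, 10 and 8 in shGFP tumours. The counts of all 6 lists stand beside the same 40.3% of all genes called. Among genes within the members' range of mean level that share was 56.9%.

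**Figure D4:**
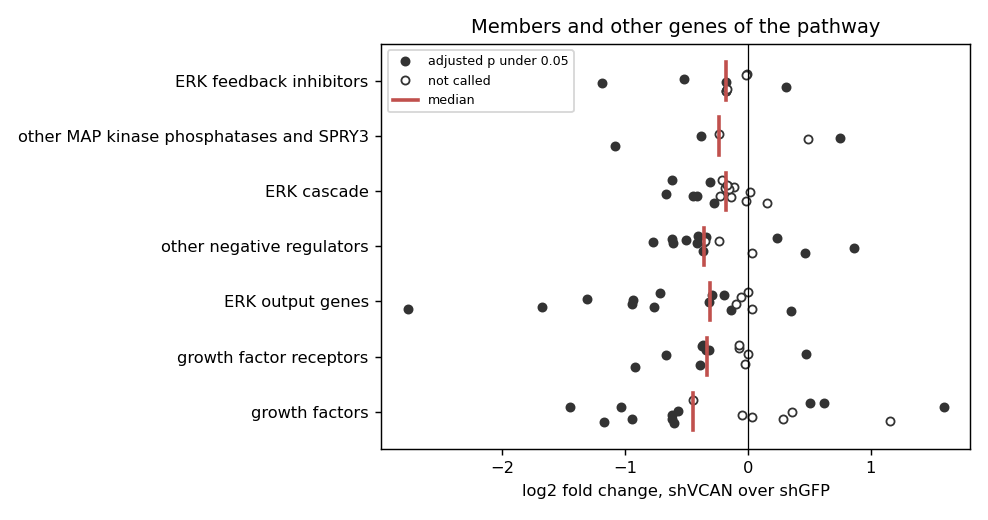
Log2 fold changes (shVCAN over shGFP, horizontal axis) of the tested members and of 6 lists of related genes, 1 point per gene, filled at an edgeR adjusted p under 0.05, with the median of each list as a red bar. Medians run from −0.45 for growth factors to −0.18 for the members and the ERK cascade, and each list holds genes on either side of 0.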

How the data were processed

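The deposited table holds raw read counts by Ensembl gene, 1 column per tumour, as whole numbers that the authors had not normalised. Per the submitters' processing notes, the tools were Trim Galore, STAR and DESeq2 and the genome was hg38; no version is given. The sources used here do not name the counter, its annotation or its strand setting. The 45 Y copies of pseudoautosomal genes were left out. Symbols came from a table of identifiers, and coordinates, union exonic length and GC content from GENCODE 29 (GRCh38).

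The main test was the edgeR 4.0.16 quasi-likelihood F-test (R 4.3.3), run over all genes kept by filterByExpr, with TMM scaling, group as the only term and Benjamini-Hochberg adjustment; genes at an adjusted p under 0.05 were called. The SE is the size of the log2 fold change divided by the square root of F. Alternatives used limma 3.58.1 (voom), DESeq2 1.42.0 and the settings in the closing section. Members and lists were chosen with earlier results of these data known. Named are all members, VCAN, up to 5 called genes of each list with the smallest p, every tested gene of the short list, and 2 genes per member of most similar pattern; some genes the rule picks are not reported here. Library totals of 11253058 to 13327617 limit low genes, and counting error does not cover amplification. Pairs of libraries differed by a chi-square per gene of 3.45 to 6.61 within and 48.9 to 83.5 between groups.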

Additional observations from a re-analysis of the deposited data

How the results depend on the processing

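Over 17 alternatives (11 other settings and 6 with 1 tumour left out), VCAN, SPRY4, SPRY1 and DUSP5 kept direction and call, and SPRED2 and SPRED3 were never called. DUSP4 was not called with upper quartile factors (−0.14), library size alone (−0.011), no filter (−0.16), the length and GC offset (−0.022) or that offset with the replicate block (−0.023), and with 1 tumour left out it ran from −0.22 to −0.15. SPRED1 was not called with upper quartile factors (−0.14), library size alone (−0.015), no filter (−0.16) or the Wald test of DESeq2 (−0.18), and with 1 tumour left out it ran from −0.24 to −0.13. SPRY2 was called lower with the offset (−0.25), also with the replicate block (−0.25). DUSP6 lay between −0.051 and 0.068 with 1 tumour left out and was called higher with library size alone (0.16). Of the members, 3 were called with upper quartile factors and 3 with no filter, and 3 to 4 with 1 tumour left out, the 3 being reached without shGFP tumour 1 and without shGFP tumour 2. With library size alone 5 genes of the ERK cascade and 5 growth factor receptors were called, and over all genes 5228 were higher and 1890 lower, so that 73.4% of calls were higher in place of 47.7%. For 32 other genes, 540 of 544 values kept direction and call, 3 lost it and 1 gained it. These genes were picked by the rule for named genes, except DUSP5-DT and SPRY4-AS1, which were added by hand. Same-numbered tumours of the groups did not deviate together (correlations of 0.0176, 0.0157 and −0.0271 across genes), so the numbers were not taken as pairs. With the replicate block 6511 genes were called in place of 6545, and no member's call changed. At these totals SPRED3, with 245 to 349 counts per tumour, carries a counting error of 5.51% in shVCAN and 6.1% in shGFP tumours.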

Other observations

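Genes annotated within 100 kb of a member were looked up after the members' values were seen. Of 18 tested neighbours, 4 rose, 4 fell and 10 were not called, where 40.3% of all genes were called, 19.2% as higher and 21.1% as lower, so the neighbours are given as a description. Beside DUSP5, DUSP5-DT rose and the cohesin gene SMC3 had a log2 fold change of −0.0022 (edgeR adjusted p = 0.987). SPRY4-AS1, on the strand opposite SPRY4, had 39, 32 and 22 counts in shVCAN tumours, against 22, 18 and 5 in shGFP tumours, and was not called (0.74, edgeR adjusted p = 0.152). With 1 tumour left out its value ran from 0.35, without shGFP tumour 3, to 1.07, without shGFP tumour 1. SPATA5 near SPRY1 fell (−0.61), as did KIF13B near DUSP4 (−0.39), SPINT2 (−0.33) and RYR1 (−1.04) near SPRED3, while PSMD8 near SPRED3 (0.34), ACTR2 near SPRED2 (0.24) and POC1B near DUSP6 (0.31) rose.

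For each member the 2 other genes with the most similar log2 CPM over the 6 tumours were found among 11327 genes. The 6 tumours share the group difference and the scaling, so high correlations are usual in such a search and are given as a description. SPRY4 was followed most closely by DENND2A (r = 0.9996) and KIAA0319L (r = 0.999), SPRY1 by SPTLC2 and NSD3 (r = 0.996 and 0.995), and SPRY2 by TMEM205 and YBX3 (r = 0.987 and 0.986). DUSP5 was followed by METTL18 and SNAPC1 (r = 0.999 and 0.997), DUSP4 by DEPTOR and WASHC5 (r = 0.995 and 0.993), and DUSP6 by NLK and REEP3 (r = 0.988 and 0.983). SPRED1 was followed by AZGP1 and LMCD1 (r = 0.998 and 0.995), SPRED2 by ZNF146 and PMP22 (r = 0.998 and 0.995), and SPRED3 by TUBG1 and HES2 (r = 0.987 and 0.983).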
